A study of Homo sapiens with 8 samples.

Results

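The E2F transcription factors and their DP partners comprise 10 genes in the annotation of these data, E2F1 to E2F8, TFDP1 and TFDP2, and all 10 were found by symbol among the 38148 genes of the table. Their mRNA was measured by poly(A) RNA-seq in HT29, a human colorectal cancer cell line with a mutant BRAF kinase. Cells were left untreated or held for 24 h in 1 µM selumetinib, an inhibitor of the kinases MEK1 and MEK2, then fixed with glyoxal, stained for cyclin B1 (CCNB1) and separated by sorting into a CCNB1-negative and a CCNB1-positive fraction. The 4 groups were thus untreated CCNB1-negative, untreated CCNB1-positive, selumetinib CCNB1-negative and selumetinib CCNB1-positive cells, with 2 libraries each. No genetic change is named in the labels, all groups are of the same line, and whether the replicates were separate cultures is not given in the labels, so p-values measure the spread between these libraries, which may be technical.

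E2F proteins bind promoters of genes for DNA replication and cell division, mostly as dimers with a DP protein. In quiescent and early G1 cells the pocket proteins RB1, RBL1 and RBL2 hold them in repressing complexes, and phosphorylation by cyclin D and cyclin E kinases downstream of the MEK-ERK pathway releases them. E2F1, E2F2 and E2F3 are classed as activators, E2F4 and E2F5 as pocket-protein-bound repressors, E2F6 as a repressor that acts without pocket proteins, and E2F7 and E2F8 as atypical repressors that bind DNA without a DP partner. Several of these genes are themselves E2F targets and rise as cells leave G1.

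The sample labels are at odds. The title of every library gives a treatment and a fraction that its description reverses, and the columns of the table carry the wording of the descriptions, which the grouping follows. By the descriptions, CCNB1 reads were 2988 and 3271 in untreated CCNB1-negative, 14140 and 15521 in untreated CCNB1-positive, 154 and 88 in selumetinib CCNB1-negative, and 6167 and 3764 in selumetinib CCNB1-positive libraries, so that CCNB1 was higher in the positive fraction of each treatment. By the titles, it would be lower in the positive fraction of each treatment. If the titles were right, every response given below for CCNB1-negative cells would be that of CCNB1-positive cells with its sign turned, and the other way round, the comparisons between fractions would trade treatments in the same manner, while the difference between both responses would stay as given. Of 10 genes known as readouts of MEK signalling, 8 fell in each fraction. The exceptions were EGR1, which rose in both fractions, and SPRED2 (0.72 and 0.45 on the log2 scale, adjusted p = 0.0058 and 0.064, limma). Among all 14219 genes tested, 5092 fell in the negative fraction and 3888 in the positive one (adjusted p under 0.05, limma). Intestinal epithelial markers summed to between 4578 and 11016 RPM (reads scaled to library size), lower in treated than untreated libraries of both fractions. KRT8 and KRT18 held most of this sum, with 122801 and 90185 reads in untreated CCNB1-negative replicate 1, against 56 for CDX2. Relative to library size, EPCAM, KRT8 and KRT18 were lower and VIL1, CDX2 and CDH1 higher in treated libraries of both fractions, while KRT20 was mixed. The fibroblast, leukocyte and endothelial markers summed to at most 5.51, 0.786 and 1.13 RPM. Their part in the results was not tested. Libraries held between 12696860 and 23916160 reads on genes, the 3 smallest being treated ones.

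Values below are the deposited log2 values, which are log2 of reads with each library scaled to the largest. This scaling did not follow the reads on genes exactly. Selumetinib CCNB1-negative replicate 1, with 13987432 reads on genes against 23916160 in the largest library, was scaled by 1.57. Marker sums and levels per kb use the reads on genes. Differences are log2 differences from limma with a mean-variance trend over all 8 libraries. A gene was called at a Benjamini-Hochberg adjusted p under 0.05 over the 14219 genes that averaged 1 RPM or more, a filter that all 10 family members passed. As these are bulk samples, fewer cells of a type and less RNA per cell cannot be told apart.

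Selumetinib lowered most of the family in CCNB1-negative cells. There 8 members fell and 1 rose, beside 74.1% of all genes called in this comparison (5092 lower, 5438 higher). The fall was 8.17-fold to 14.1-fold for E2F1, E2F2, E2F7 and E2F8, 4.42-fold for TFDP1, and 1.73-fold to 2.57-fold for E2F3, E2F4 and E2F6. TFDP2 rose 6.72-fold. E2F5 did not pass the test. In CCNB1-positive cells 6 members fell and 2 rose, beside 65.3% of all genes called (3888 lower, 5400 higher). There E2F3, E2F4, E2F5 and TFDP1 fell 1.68-fold to 2.79-fold, E2F1 and E2F6 fell 1.41-fold and 1.36-fold, TFDP2 rose 4.7-fold and E2F2 rose 2.67-fold. The median log2 difference over the 10 members was -1.75 in the negative and -0.50 in the positive fraction, beside 0.05 and 0.17 over all genes tested.

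**Figure D1:**
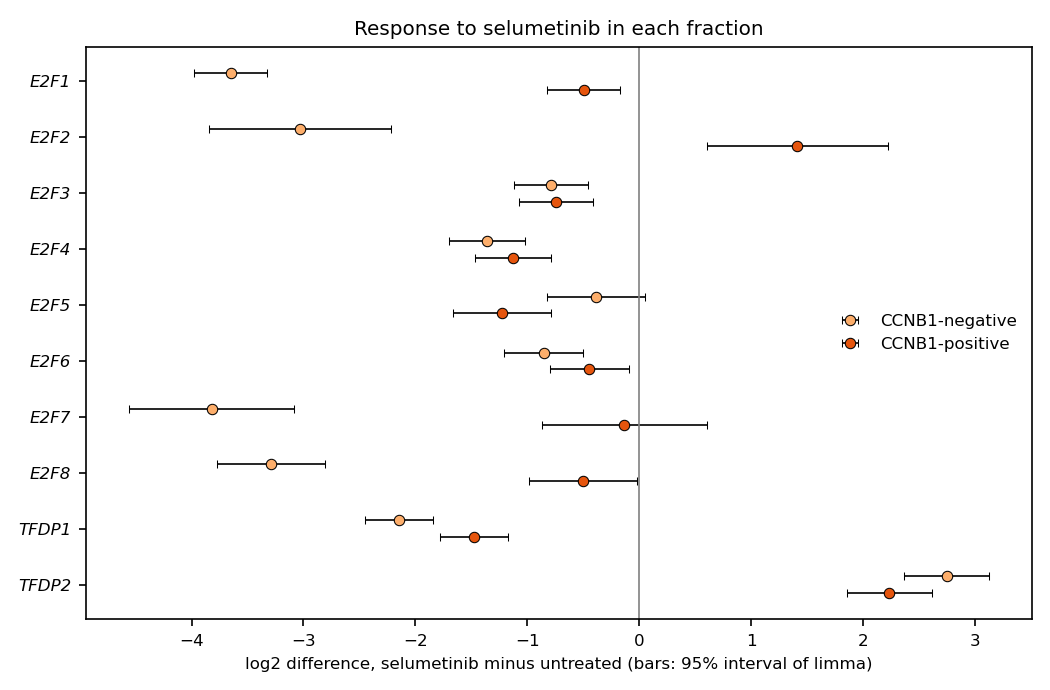
Log2 difference between selumetinib and untreated cells for each of the 10 genes (x axis) in CCNB1-negative (light) and CCNB1-positive (dark) cells, with the 95% interval of limma. E2F1, E2F2, E2F7 and E2F8 lie between -3.82 and -3.03 in CCNB1-negative cells and between -0.50 and 1.41 in CCNB1-positive cells, while TFDP2 lies far to the right in both.

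The scaling to total reads left the median gene 0.17 higher under selumetinib in CCNB1-positive cells, against -0.08 after quantile normalization and -0.0024 after median-of-ratios scaling, and it left 0.11 in the difference between the responses. Relative to the median gene, E2F1 stood at -0.66, E2F2 at 1.25, E2F7 at -0.30 and E2F8 at -0.67 in the CCNB1-positive response.

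The activators differed from each other. E2F1, which drives G1/S genes and can also induce apoptosis, stood at 11.69 and 11.61 in untreated CCNB1-negative, 9.69 and 9.50 in untreated CCNB1-positive, 7.93 and 8.07 in selumetinib CCNB1-negative, and 9.05 and 9.15 in selumetinib CCNB1-positive libraries. No 2 groups overlapped, and the treated CCNB1-negative libraries were lowest. Under selumetinib E2F1 fell, at -3.65 ± 0.15 (SE) in CCNB1-negative cells (adjusted p = 7.9e-10, limma) and -0.50 ± 0.15 in CCNB1-positive cells (adjusted p = 0.011). The second call was lost without untreated CCNB1-positive replicate 1 (-0.40, adjusted p = 0.10) or selumetinib CCNB1-positive replicate 1 (-0.45, adjusted p = 0.071).

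E2F2, the activator with the fewest reads, had 237 and 145 reads in untreated CCNB1-negative, 36 and 22 in untreated CCNB1-positive, 22 and 12 in selumetinib CCNB1-negative, and 57 and 61 in selumetinib CCNB1-positive libraries. The log2 values were 8.0 and 7.51, 5.17 and 4.59, 5.11 and 4.35, and 6.0 and 6.59 in the same order. The untreated CCNB1-negative libraries were highest, and the untreated CCNB1-positive and treated CCNB1-negative libraries overlapped. E2F2 fell by 3.03 ± 0.38 under selumetinib in CCNB1-negative cells (adjusted p = 6.5e-06, limma) and rose by 1.41 ± 0.38 in CCNB1-positive cells (adjusted p = 0.0048). The call changed with the scaling and with 1 library. The difference was 0.19 after quantile normalization (adjusted p = 0.65), 1.24 after median-of-ratios scaling (adjusted p = 0.0072), and 1.12 without selumetinib CCNB1-positive replicate 2 (adjusted p = 0.060).

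E2F3, the third activator, stood at 10.35 and 10.31, 10.18 and 10.04, 9.43 and 9.66, and 9.28 and 9.46 in that order of groups. Both treated groups lay below both untreated groups and overlapped each other. It fell by 0.79 ± 0.15 in the negative (adjusted p = 0.00034, limma) and by 0.74 ± 0.15 in the positive fraction (adjusted p = 0.00076), and the difference between these responses was 0.04, with a 95% interval from -0.42 to 0.51. Reads of the long and short E2F3 transcripts are summed in 1 value here.

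Promoters were read from RefSeq's gene starts on GRCh38.p14, and 8 of the 10 members had an entry, E2F5 and E2F8 being the others. Windows of 250 bases before to 50 after the start were searched on both strands for the E2F-type words TTTCCCGC, TTTCGCGC, TTTGCCGC and TTTGGCGC, which 3.31% of all 35116 promoters held. The words were found in 4 members. E2F1 had TTTGCCGC on the opposite strand from base -33 and TTTGGCGC from base -20, E2F2 had TTTGGCGC from base -42, E2F3 had TTTCCCGC on the opposite strand from base -53, and TFDP1 had TTTCGCGC on the opposite strand from base -120, positions being the leftmost base of the word along the gene's strand, counted back from the start. The words TTTGAA and TTCGAA, known from cell cycle genes that DREAM represses, stood in 16.4% of promoters and in E2F3 among the members. E2F3 has 2 starts in the table, and the first was used. The upstream 250 bases of E2F1 and E2F2, the activators that changed most, are shown on the strand of the gene, with the E2F-type words in capitals (a word on the opposite strand appears as its reverse complement), from chr20:33686386-33686635 (minus strand) and chr1:23531234-23531483 (minus strand).
E2F1: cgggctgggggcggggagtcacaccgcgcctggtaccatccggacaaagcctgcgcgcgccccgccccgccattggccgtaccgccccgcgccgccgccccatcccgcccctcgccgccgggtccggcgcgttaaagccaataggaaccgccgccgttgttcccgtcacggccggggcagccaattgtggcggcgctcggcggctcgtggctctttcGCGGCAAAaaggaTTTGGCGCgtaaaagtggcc
E2F2: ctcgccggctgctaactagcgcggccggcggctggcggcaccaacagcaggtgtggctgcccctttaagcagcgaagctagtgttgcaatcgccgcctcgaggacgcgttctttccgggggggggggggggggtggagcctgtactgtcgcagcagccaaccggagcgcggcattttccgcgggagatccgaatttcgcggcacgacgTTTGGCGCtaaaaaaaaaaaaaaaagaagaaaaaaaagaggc

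**Figure D2:**
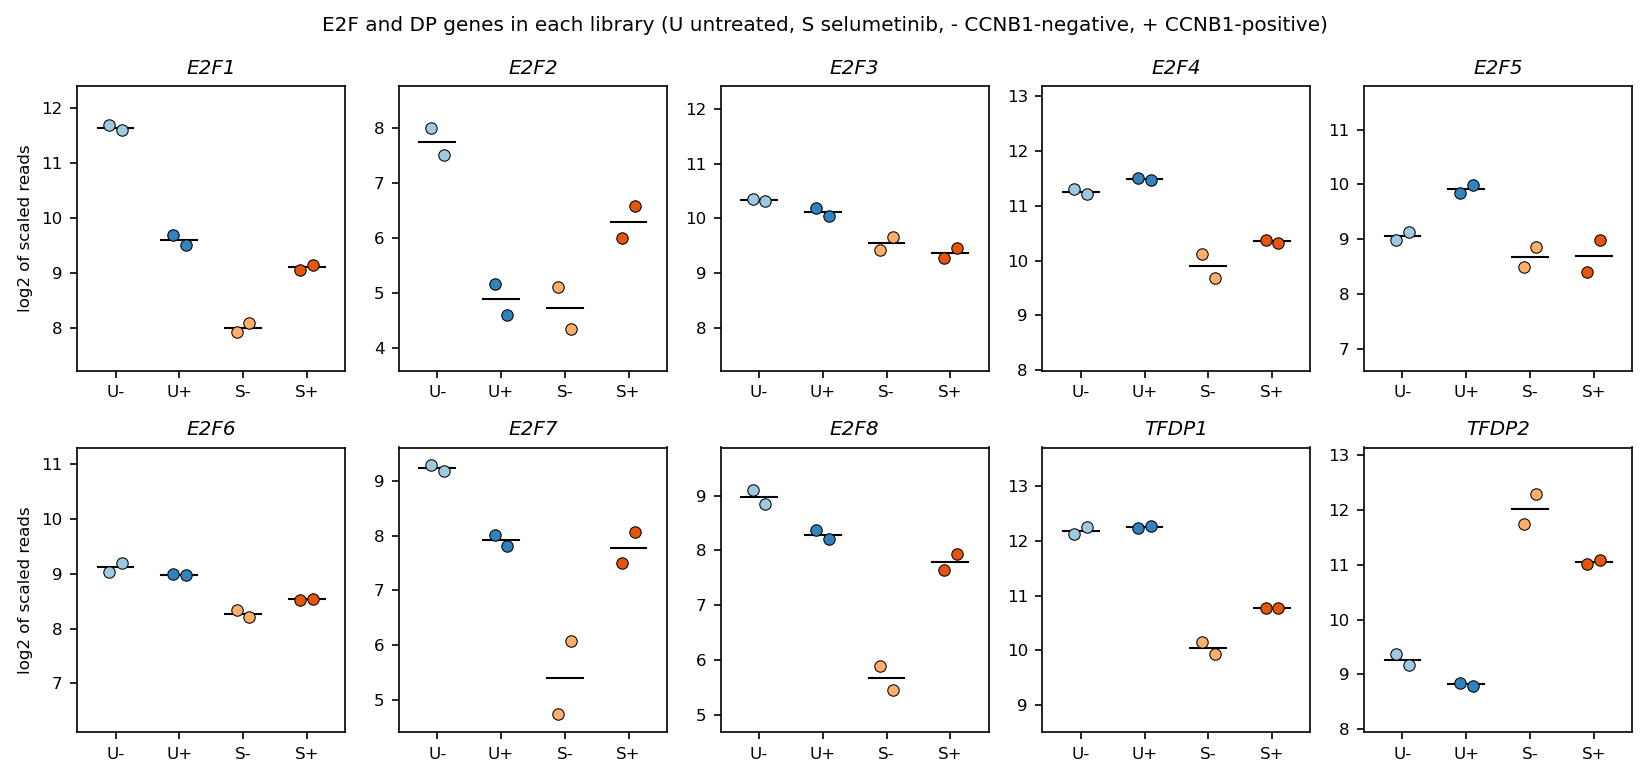
Deposited log2 value (log2 of scaled reads, y axis, each panel spanning the same range of log2 units) of every library for the 10 genes, with the group mean as a line. U- and U+ are untreated and S- and S+ selumetinib-treated CCNB1-negative and CCNB1-positive cells. Most genes are highest in U- or U+, and TFDP2 is the gene that is highest in S-.

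Both repressors lay between E2F1 and no change in CCNB1-negative cells. E2F4, the main partner of RBL1 and RBL2 in quiescent cells, stood at 11.30 and 11.21 in untreated CCNB1-negative, 11.50 and 11.47 in untreated CCNB1-positive, 10.11 and 9.67 in selumetinib CCNB1-negative, and 10.38 and 10.33 in selumetinib CCNB1-positive libraries. No 2 groups overlapped, with the treated groups below the untreated ones. It fell by 1.36 ± 0.16 in the negative (adjusted p = 3.3e-06, limma) and by 1.13 ± 0.16 in the positive fraction (adjusted p = 3.5e-05), and the responses differed by 0.23, with a 95% interval from -0.25 to 0.71.

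E2F5, the other pocket-protein-bound repressor, stood at 8.98 and 9.13, 9.85 and 9.99, 8.49 and 8.85, and 8.40 and 9.0 in the same order. The untreated CCNB1-positive libraries were highest, and both treated groups overlapped. The log2 difference under selumetinib was -0.39 ± 0.21 in CCNB1-negative cells (adjusted p = 0.10, limma), and E2F5 fell by 1.23 ± 0.21 in CCNB1-positive cells (adjusted p = 0.00016). Exons of E2F5 share 997 bases, 16.6% of their length, with RBIS on the opposite strand. RBIS had 611 to 1853 reads against 229 to 931 for E2F5, and it fell, at -0.86 in the negative (adjusted p = 0.00046, limma) and -0.43 in the positive fraction (adjusted p = 0.043). Whether the counting used strand is not stated, so E2F5 values are uncertain.

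E2F6, a repressor found in the polycomb complex PRC1.6, stood at 9.04 and 9.20, 8.99 and 8.97, 8.33 and 8.20, and 8.53 and 8.54 in the same order. Both treated groups lay below both untreated groups. E2F6 fell by 0.85 ± 0.16 in CCNB1-negative cells (adjusted p = 0.00032, limma) and by 0.45 ± 0.16 in CCNB1-positive cells (adjusted p = 0.028). The second call was lost on leaving out any single library of that comparison, with differences between -0.43 and -0.46 and adjusted p between 0.094 and 0.11.

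Both atypical members fell in CCNB1-negative cells, and neither passed the test in CCNB1-positive cells. E2F7, which with E2F8 represses E2F1 late in S phase, stood at 9.28 and 9.18 in untreated CCNB1-negative, 8.01 and 7.82 in untreated CCNB1-positive, 4.74 and 6.08 in selumetinib CCNB1-negative, and 7.49 and 8.07 in selumetinib CCNB1-positive libraries. The treated CCNB1-negative libraries, with 17 and 40 reads, were lowest and apart from all others, and the treated and untreated CCNB1-positive libraries overlapped. E2F7 fell by 3.82 ± 0.34 in CCNB1-negative cells (adjusted p = 3.2e-07, limma), by 3.15 without selumetinib CCNB1-negative replicate 1 and by 4.49 without replicate 2. In CCNB1-positive cells the log2 difference was -0.13 ± 0.34 (adjusted p = 0.75), with a 95% interval from -0.87 to 0.61.

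E2F8 stood at 9.10 and 8.85, 8.37 and 8.21, 5.90 and 5.46, and 7.64 and 7.93 in the same order. No 2 groups overlapped, and the treated CCNB1-negative libraries, with 38 and 26 reads, were lowest. It fell by 3.29 ± 0.22 in CCNB1-negative cells (adjusted p = 2.8e-08, limma). In CCNB1-positive cells the log2 difference was -0.50 ± 0.22 (adjusted p = 0.062), and it was -0.67 after median-of-ratios scaling (adjusted p = 0.013) and -1.03 after quantile normalization (adjusted p = 0.0016).

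The DP partners moved in opposite directions. TFDP1, the main DP partner in dividing cells, stood at 12.12 and 12.26 in untreated CCNB1-negative, 12.24 and 12.26 in untreated CCNB1-positive, 10.14 and 9.94 in selumetinib CCNB1-negative, and 10.77 and 10.78 in selumetinib CCNB1-positive libraries. The treated groups were lower than the untreated ones and did not overlap each other. TFDP1 fell by 2.14 ± 0.14 in the negative (adjusted p = 2.0e-08, limma) and by 1.48 ± 0.14 in the positive fraction (adjusted p = 1.6e-06).

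TFDP2, the second DP gene, stood at 9.37 and 9.17, 8.85 and 8.79, 11.74 and 12.29, and 11.02 and 11.09 in the same order, and its reads rose from 404 to 612 in untreated libraries to 1384 to 2959 in treated ones. No 2 groups overlapped, and the treated CCNB1-negative libraries were highest. TFDP2 rose by 2.75 ± 0.18 in the negative (adjusted p = 1.6e-08, limma) and by 2.23 ± 0.18 in the positive fraction (adjusted p = 4.0e-07), and both rises passed the test under every alternative tried. The upstream bases of both partners are shown as those of members that moved oppositely, from chr13:113584503-113584752 (plus strand) and chr3:142149545-142149794 (minus strand), with the E2F-type word of TFDP1 in capitals. The window of TFDP2 held none of the words.
TFDP1: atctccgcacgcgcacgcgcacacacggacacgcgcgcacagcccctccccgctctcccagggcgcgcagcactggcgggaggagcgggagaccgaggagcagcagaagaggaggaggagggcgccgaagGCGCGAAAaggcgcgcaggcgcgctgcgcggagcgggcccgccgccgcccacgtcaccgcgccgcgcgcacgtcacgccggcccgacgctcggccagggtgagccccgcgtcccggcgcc
TFDP2: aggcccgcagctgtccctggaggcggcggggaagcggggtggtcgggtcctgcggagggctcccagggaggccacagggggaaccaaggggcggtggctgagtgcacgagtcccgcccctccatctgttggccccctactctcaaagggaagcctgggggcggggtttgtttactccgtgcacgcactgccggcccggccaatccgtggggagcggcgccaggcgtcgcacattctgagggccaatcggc

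Between genes, levels were compared as RPM per kb of merged exons. TFDP1 had 52.1 ± 3.07 (SD, n = 2) in untreated CCNB1-negative and 54.2 ± 0.352 in untreated CCNB1-positive cells, and 13.0 ± 1.12 and 20.9 ± 0.303 in the same fractions under selumetinib. TFDP2 had 2.18 ± 0.236 and 1.58 ± 0.0559 untreated and 16.4 ± 4.56 and 8.0 ± 0.353 under selumetinib. TFDP2 was thus 4.49% and 3.57% of the summed DP level in untreated CCNB1-negative libraries, 2.92% and 2.75% in untreated CCNB1-positive, 48.8% and 61.7% in selumetinib CCNB1-negative, and 27.2% and 28.1% in selumetinib CCNB1-positive libraries. Such shares do not depend on the scaling of a library. Per kb of the MANE Select transcript, a length chosen after the data were seen, the treated CCNB1-negative shares were 44.8% and 57.7%.

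**Figure D3:**
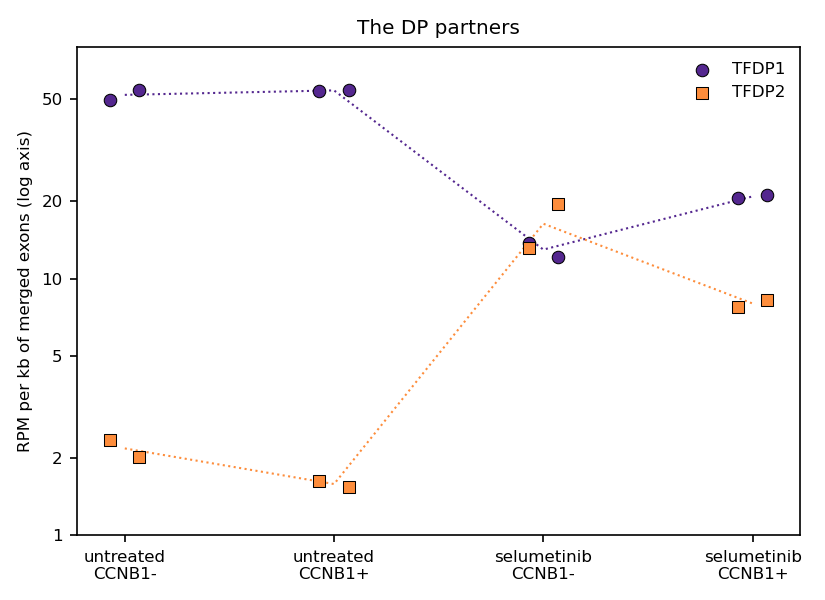
Level of TFDP1 (circles) and TFDP2 (squares) in each library as RPM per kb of merged exons on a log axis, with a dotted line through the group means. TFDP1 is far above TFDP2 in the untreated groups, and both meet in selumetinib CCNB1-negative cells, where the libraries overlap.

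Per kb of merged exons the order of levels changed with group. In untreated CCNB1-negative cells TFDP1 and E2F1 (49.9 ± 2.45) led and overlapped, followed by E2F4 (28.4 ± 1.5) and E2F3 (10.4 ± 0.310). E2F6 (5.73 ± 0.417) overlapped E2F8 (5.10 ± 0.650), and E2F7 (3.99 ± 0.227) overlapped E2F5 (3.72 ± 0.243). In untreated CCNB1-positive cells TFDP1 led, followed by E2F4 (33.1 ± 0.717) and E2F1 (12 ± 1.17), and of the neighbours E2F7 (1.6 ± 0.162) and TFDP2 alone overlapped. In selumetinib CCNB1-negative cells TFDP2, TFDP1 and E2F4 (12.3 ± 2.45) led, each overlapping the next, while E2F1 had dropped to 4.39 ± 0.379, and E2F8 (0.576 ± 0.114), E2F7 (0.347 ± 0.217) and E2F2 (0.230 ± 0.0813) closed the order, each overlapping the next. In selumetinib CCNB1-positive cells TFDP1, E2F4 (16.3 ± 0.326), E2F1 (9.13 ± 0.496) and TFDP2 followed each other without overlap. The order moved with the length used. Per kb of the MANE Select transcript, TFDP1 (73.9 ± 4.36) stood above E2F1 without overlap in untreated CCNB1-negative cells, E2F1 overlapped E2F4 (48.4 ± 2.56), and E2F5 (11.4 ± 0.744) overlapped E2F3 (10.7 ± 0.320). In untreated CCNB1-positive cells E2F5 (20.6 ± 1.32) then stood above E2F1. In selumetinib CCNB1-negative cells E2F4 (20.9 ± 4.17), TFDP2 (19.7 ± 5.49) and TFDP1 (18.4 ± 1.59) led, each overlapping the next, and in selumetinib CCNB1-positive cells E2F5 (9.67 ± 2.86), TFDP2 (9.63 ± 0.425) and E2F1 followed E2F4, each overlapping the next. The mean of E2F2 was lowest in every group under both lengths.

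By class, the activators made up 57.2% and 56.7% of the summed E2F level in untreated CCNB1-negative libraries, 30.8% and 28.6% in untreated CCNB1-positive, 33.0% and 39.5% in selumetinib CCNB1-negative, and 35.6% and 36.4% in selumetinib CCNB1-positive libraries. The untreated CCNB1-negative libraries stood apart on the high side. The repressors E2F4 and E2F5 held 29.4% and 29.6%, 55.0% and 57.5%, 52.9% and 46.3%, and 46.3% and 44.2% in the same order, so that the ratio of activators to repressors was 1.95 and 1.91 in untreated CCNB1-negative libraries and between 0.498 and 0.853 in the other 6. Per kb of the MANE Select transcript, which for E2F4 and E2F5 is much shorter than the merged exons, this ratio was 1.06 and 1.03 in untreated CCNB1-negative libraries and between 0.260 and 0.425 in the others. The atypical members held 8.65% and 8.04%, 6.95% and 6.45%, 2.69% and 3.26%, and 8.31% and 10.2% in the same order, and were lowest in the treated CCNB1-negative libraries under both lengths.

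**Figure D4:**
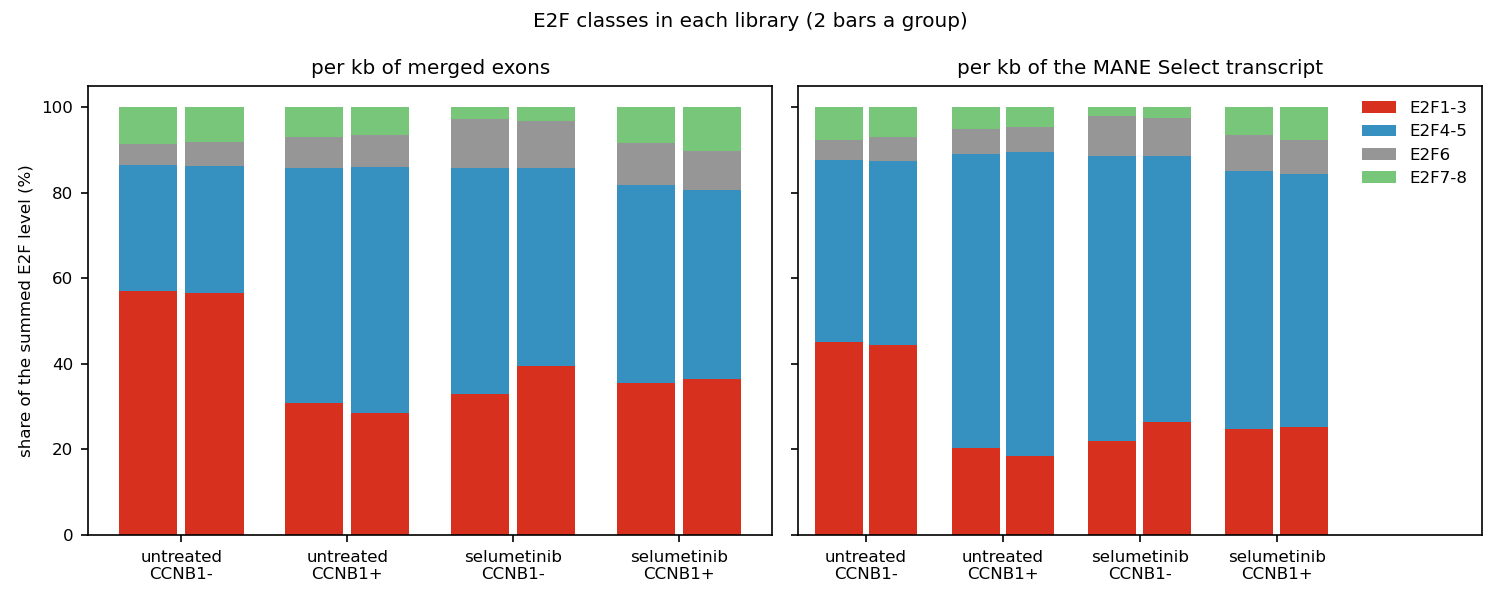
Share of the summed E2F level (y axis, %) held by activators (E2F1-3), repressors (E2F4-5), E2F6 and atypical members (E2F7-8) in each of the 8 libraries, per kb of merged exons (left) and per kb of the MANE Select transcript (right). With either length the activator share is highest in the 2 untreated CCNB1-negative libraries and the atypical share lowest in the 2 selumetinib CCNB1-negative ones.

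The comparisons between fractions use the same libraries as the responses above and are not independent of them. The fit treated the fractions as independent libraries. A replicate block by treatment gained calls, among them E2F7, E2F8 and TFDP2 between untreated fractions, which are given at the end. Without drug, 3 members differed between the fractions, beside 2.87% of all genes called. E2F1 was 4.15-fold lower in CCNB1-positive than CCNB1-negative cells, a log2 difference of -2.05 ± 0.15 (adjusted p = 4.3e-06, limma), and E2F2 was 7.35-fold lower (adjusted p = 0.00042). E2F5 was 1.82-fold higher (adjusted p = 0.037), a call lost on leaving out any 1 of the 4 untreated libraries (adjusted p between 0.066 and 0.23). E2F7 had a log2 difference of -1.32 ± 0.34 (adjusted p = 0.061), which passed the test with limma-voom on the recovered reads (adjusted p = 0.0018), and for E2F8 the value was -0.68 (adjusted p = 0.15, limma-voom 0.048). TFDP1 differed by 0.06, with a 95% interval from -0.24 to 0.37.

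Under selumetinib, 6 members differed between the fractions, beside 21.6% of all genes called. E2F7 was 5.18-fold (adjusted p = 0.00028, limma), E2F8 4.3-fold (adjusted p = 1.3e-05), E2F1 2.14-fold (adjusted p = 0.00017) and TFDP1 1.66-fold (adjusted p = 0.0026) higher in CCNB1-positive than CCNB1-negative cells, and TFDP2 was 1.95-fold lower (adjusted p = 0.0018). E2F2 was 2.96-fold higher (adjusted p = 0.011), a call lost without selumetinib CCNB1-negative replicate 2 (adjusted p = 0.12) or selumetinib CCNB1-positive replicate 2 (adjusted p = 0.098). The E2F7 log2 difference of 2.37 was 1.70 without selumetinib CCNB1-negative replicate 1 and 3.05 without replicate 2. E2F4 was 0.46 higher on the log2 scale (adjusted p = 0.052) and passed at an adjusted p of 0.0061 without selumetinib CCNB1-negative replicate 1. E2F1 and E2F2 were therefore lower in CCNB1-positive cells without drug and higher in them with drug.

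Whether the response itself differed between the fractions was tested with the interaction, CCNB1-positive minus CCNB1-negative response. It was called for 4 members, beside 5.33% of all genes. All 4 were positive, as were 709 of the 758 genes called. The difference was 4.44 ± 0.53 for E2F2 (adjusted p = 9.0e-05, limma), 3.69 ± 0.49 for E2F7 (adjusted p = 0.00021), 3.15 ± 0.21 for E2F1 (adjusted p = 3.9e-06) and 2.79 ± 0.32 for E2F8 (adjusted p = 5.4e-05). The sizes for the genes with few reads varied with the setting. The E2F7 difference was 3.02 without selumetinib CCNB1-negative replicate 1 and 4.36 without replicate 2, and the E2F2 difference was 3.18 on log2(RPM + 1) values and 3.83 with quantile normalization. Its interval was 0.24 to 1.09 for TFDP1 (adjusted p = 0.073), -1.05 to 0.02 for TFDP2 (adjusted p = 0.27), -1.46 to -0.21 for E2F5 (adjusted p = 0.13) and -0.09 to 0.91 for E2F6 (adjusted p = 0.34). Without selumetinib CCNB1-negative replicate 1, E2F5, TFDP1 and TFDP2 were called as well, and E2F5 was also called on leaving out another library. Over all left-out libraries the difference ran from -1.14 to -0.54 for E2F5, 0.56 to 0.77 for TFDP1 and -0.79 to -0.24 for TFDP2. With quantile normalization TFDP1 was called, at 0.68 (adjusted p = 0.045, limma).

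Of 27 textbook E2F target genes, 25 fell and 1 rose in CCNB1-negative cells, with a median log2 difference of -3.61, and 22 fell and 2 rose in CCNB1-positive cells, with a median of -1.03. Over all genes tested, 74.1% and 65.3% were called in either direction and the medians were 0.05 and 0.17, which the lists below can be read against. The interaction was called for 24 of the 27, all positive, with a median of 2.33 beside 0.11 over all genes. Of the 758 genes called in it, 709 were positive. CDC6, which loads the replicative helicase, fell in both fractions, at -4.46 and -1.45, and so did the mitotic kinase CDK1, at -4.17 and -1.03. The repair gene BRCA1 had one of the smallest differences in CCNB1-negative cells, at -0.28 (adjusted p = 0.13, limma), and rose by 0.63 in CCNB1-positive cells (adjusted p = 0.0034). Some targets, RBL1, MYBL2, CCNE1 and CCNE2, stand in the lists below as well.

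**Figure D5:**
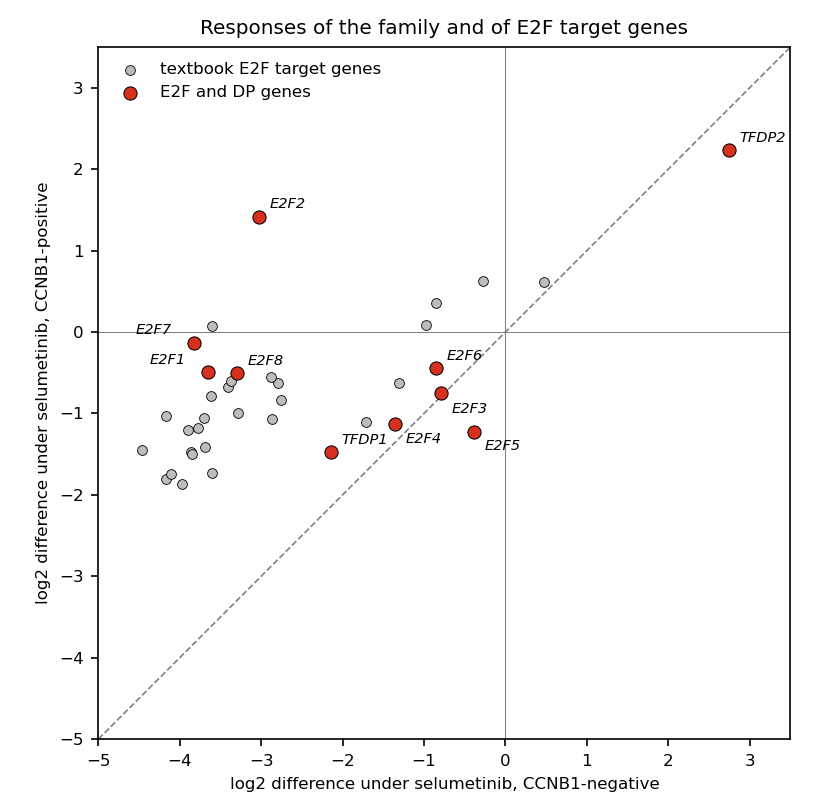
Log2 difference under selumetinib in CCNB1-negative (x axis) and CCNB1-positive cells (y axis) for the 10 family genes (red, named) and the 27 textbook E2F target genes (grey). The dashed line marks equal responses. E2F1, E2F7 and E2F8 lie among the target genes above the line, E2F2 lies above them, and E2F3, E2F4 and E2F6 lie close to the line.

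Upstream of the family, 19 of 20 cyclins, kinases, inhibitors and pocket proteins were tested, CCND2 having at most 2 reads. In CCNB1-negative cells 11 fell and 3 rose, with a median of -0.78. CCNE2 and CCNE1, cyclins that activate CDK2, fell, at -3.61 and -2.79, while CCND3 (-0.02, adjusted p = 0.91, limma) and CDK6 (0.15, adjusted p = 0.37), both parts of cyclin D kinases, had the smallest differences. In CCNB1-positive cells 5 fell and 4 rose, with a median of 0.01. The genes that rose, named after their values were seen, were RBL2 (0.81 and 0.71), CDKN1C (2.73 and 3.68) and CDKN2B (0.97 and 1.20) in both fractions and CDKN1A (1.66) in CCNB1-positive cells. RBL2 is a pocket protein that binds E2F4, and the others are inhibitors of cyclin-dependent kinases. Not all such inhibitors rose. CDKN2C (-2.63), CDKN2D (-0.78) and CDKN2A (-0.67), named likewise, fell in CCNB1-negative cells, and CDKN1B was not called (-0.18, adjusted p = 0.41, limma). None of these passed the test in CCNB1-positive cells. The listed genes that fell in CCNB1-positive cells, named likewise, were CCND1 (-1.29), CDK4 (-1.46), CCNE1 (-0.62), CDK2 (-0.37) and SKP2 (-0.88).

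The MuvB core, which joins E2F4 and RBL2 in the DREAM complex, and its partner MYBL2 were tested as 6 genes. In CCNB1-negative cells 4 fell and 2 rose, and in CCNB1-positive cells 2 fell and 2 rose. MYBL2 fell in both, at -3.28 and -0.99, and LIN9 fell by 1.13 in CCNB1-negative cells and stood at 0.33 in CCNB1-positive cells (adjusted p = 0.12, limma). LIN52 rose by 0.66 and 0.72, and LIN37 rose by 0.71 and 0.72. The others that fell, named after their values were seen, were LIN54 (-0.79) in CCNB1-negative cells and RBBP4 (-0.81 and -0.54) in both.

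Of 9 PRC1.6 genes, the partners of E2F6, 4 fell and 1 rose in CCNB1-negative cells, and 5 fell and 1 rose in CCNB1-positive cells. CBX3, a heterochromatin protein, fell, at -1.81 and -1.01, and YAF2 rose by 1.32 and 1.10, while RING1 (-0.0041 and 0.07) and RYBP (-0.02 and -0.03) had the smallest differences. The others that fell, named after their values were seen, were PCGF6, L3MBTL2 and MAX in both fractions and RNF2 in CCNB1-positive cells, at -0.91 to -0.38. Of 4 germline genes known as E2F6 targets, STAG3 had 4 to 17 reads per library, SMC1B 2 to 22, SLC25A31 0 to 8 and MAEL 0 to 3, all below the filter.

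Of 6 apoptosis genes linked to E2F1, APAF1, an apoptosome subunit, rose in both fractions (0.94 and 1.14), and BBC3, a BH3-only protein, rose by 1.61 in CCNB1-positive cells and stood at 0.51 in CCNB1-negative cells (adjusted p = 0.15, limma). TP73 (-0.82) and BCL2L11 (-0.51) fell in CCNB1-negative cells.

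Over the 8 libraries, the genes most like each member by Pearson's r of the log2 values were TOP3A (0.989), DONSON (0.988) and FANCL (0.984) for E2F1, RMI1 (0.983), SLC25A40 (0.976) and PASK (0.968) for E2F2, DNA2 (0.983), ATAD5 (0.979) and RDH11 (0.977) for E2F7, and KDM4A-AS1 (0.992), MASTL (0.991) and TEDC2 (0.990) for E2F8. For E2F4 they were EIF4G1 (0.999), REXO4 (0.999) and U2AF2 (0.998), for E2F6 VMA21 (0.997), TIMM10B (0.997) and PHF10 (0.996), for E2F3 HEATR3 (0.991), SLC43A1 (0.990) and CHCHD10 (0.986), and for E2F5 SGPP2 (0.962), AMBP (0.954) and DDX10 (0.948). TFDP1 was matched by C20orf27 (0.9995), SUPT16H (0.999) and PSMD11 (0.999), and TFDP2 by IFT88 (0.9997), SSH2 (0.9997) and NEBL (0.999). Within the family r was highest for TFDP1 with E2F4 (0.985) and lowest for TFDP2 with E2F4 (-0.995), and E2F7 and E2F8 gave 0.935. These correlations describe 8 points that fall into 4 groups, share treatment and fraction within a group, and differ in depth. The search covered the genes tested, without clone and LINC identifiers.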

How the data were processed

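The authors prepared stranded poly(A) libraries, used Trim Galore 0.5.0 for trimming and HISAT2 2.1.0 for mapping to GRCh38, and took gene values from SeqMonk. The deposited table holds log2 values scaled to total reads, and a gene without a read stands at log2 of 0.9 reads. The annotation release, the feature counted and the strand handling are not given in the sources used here. Labels and methods name different growth media. The authors' own test was DESeq2.

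All 8 value columns were used and 0 were set aside. Whole reads were recovered within a tolerance of 0.02 for at least 99.9% of genes with reads. They give the depth, the counting error, the marker sums, the levels per kb and some of the alternatives. The design allowed for counts or log2 values, and the log2 fit was used: limma 3.58.1 (R 4.3.3) with its trend option, 1 coefficient per group, on genes that averaged 1 RPM or more, p-values adjusted by Benjamini-Hochberg over 14219 genes. As a check of the code, the fit was run on reads simulated with the same spread setting for every gene. Its error rates on these data were not measured. Exon lengths came from GENCODE 44, where 99.3% of identifiers were found. Python 3.11.15, pandas 2.3.3 and numpy 2.4.6 did the rest, and matplotlib 3.10.9 drew the figures.

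The members and lists were chosen with earlier results of these data known. All 10 members are named with the value of every library. Of each list, the 2 genes with the largest and the 2 with the smallest absolute difference in CCNB1-negative cells are named. Of the genes tested, without clone and LINC identifiers, the 3 most correlated with each member are named. Some list genes are not reported here. Alternatives changed the filter, normalization, pseudocount, test, threshold, block and the libraries included. COLO205 data were not analysed here.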

Additional observations from a re-analysis of the deposited data

Results flagged for a closer look

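For 4 members the test of the difference itself found unequal responses in the fractions. The CCNB1-positive minus the CCNB1-negative response was 3.15 for E2F1, from -3.65 in CCNB1-negative to -0.50 in CCNB1-positive cells (adjusted p = 3.9e-06, limma). For E2F2 it was 4.44, from -3.03 to 1.41 (adjusted p = 9.0e-05). For E2F7 it was 3.69, from -3.82 to -0.13 (adjusted p = 0.00021). For E2F8 it was 2.79, from -3.29 to -0.50 (adjusted p = 5.4e-05). CCNB1, the gene the cells were sorted by, had a difference of 2.99 in the same test. Groups of 2 libraries are too small to be checked for a single library that stands apart.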

How the results depend on the processing

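Of 905 member differences under alternative settings, 833 kept their direction and side of the threshold. Another 28 lost a call, 33 gained one and 11 changed sign, and none of the 11 was called in the reported fit. Many settings could alter a call and not the sign. Thresholds, filters, blocks, fits of only the groups compared and left-out libraries outside a comparison leave the log2 difference unchanged. The values that changed sign were E2F5 between treated fractions (-0.10 with quantile normalization, -0.030 with median-of-ratios scaling, -0.27 to 0.32 on leaving out a library), E2F3 in the difference between responses (-0.092 and -0.068 under these scalings, -0.071 to 0.16 on leaving out a library), TFDP1 between untreated fractions (-0.0044 to 0.13 on leaving out a library) and E2F7 in the CCNB1-positive response (-0.42 to 0.16 likewise). A mean of at least 10 RPM left 1 of 4 members called in the difference between responses, since E2F2, E2F7 and E2F8 fell under the filter. Calls in the CCNB1-positive response were 5 in place of 8 when a 2-fold change was also required, and between untreated fractions 5 in place of 3 with limma-voom, whose cause was not tested.

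Leaving out 1 library gave 9 members called each time in the CCNB1-negative response, 6 to 9 in the CCNB1-positive response, 2 to 4 between untreated fractions, 5 to 7 between treated fractions and 4 to 7 in the difference between responses. Over all genes, counts moved by more than 1.5 times from 408 between untreated fractions (217 at an adjusted p under 0.01, 255 with a 2-fold change, 254 with quantile normalization, 259 without a filter, and 224 to 455 on leaving out a library), from 3077 between treated fractions (1338, 908 and, on leaving out a library, 1156 to 4279), from 758 in the difference between responses (426 at 0.01, 496 without a filter, 489 to 1806 on leaving out a library), from 10530 to 6758 and from 9288 to 4874 in the responses with a 2-fold change.

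The replicate numbers come from the labels, which do not say that a number marks a shared day or batch. Deviations of same-numbered libraries correlated at 0.352 and 0.428 across fractions within a treatment and between -0.0875 and 0.0821 otherwise, and the labels do not establish a pairing. With the replicate number as a block, 10, 9, 4, 7 and 4 members were called in the order of comparisons above. With a replicate block by treatment, 6 in place of 3, 7 in place of 6 and 7 in place of 4 were called between untreated fractions, between treated fractions and in the difference between responses (1923, 6671 and 3850 of all genes). The calls gained were E2F7, E2F8 and TFDP2 between untreated fractions (adjusted p = 0.00015, 0.020 and 0.013, limma), E2F4 between treated fractions (0.0016), and TFDP1, E2F5 and TFDP2 in the difference between responses (0.0015, 0.0015 and 0.025). Low reads limit E2F2, E2F7 and E2F8 in treated CCNB1-negative cells, where a library held 12 to 40 reads.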
